A study of Mus musculus with 19 samples.

Results

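The small leucine-rich proteoglycans are secreted matrix proteins with a short leucine-rich repeat domain, most of which carry chondroitin, dermatan or keratan sulphate chains. Counts of 10 genes of this family, Dcn, Lum, Bgn, Fmod, Podn, Podnl1, Ogn, Prelp, Omd and Aspn, were followed through mouse skin tumours and normal skin; they are 10 of the 34807 genes in the table, chosen by symbol, and all 10 passed the filter on low counts. The list was put together with results from these same 19 libraries known, so the calls and p-values below describe these samples and are no independent evidence for the family. Bulk RNA sequencing covered 6 Ivl tumours (genotype Ivl:BRAFV600E), 5 K5 tumours (K5:BRAFV600E), 4 K14 tumours (K14:BRAFV600E) and 4 samples of normal skin from wild-type mice, all from females. In the tumour mice an inducible Cre recombinase had turned on a mutant BRAF kinase. The methods of the study give tamoxifen as the inducing agent for Ivl mice and 4-hydroxytamoxifen for the Krt5 and Krt14 mice, so agent and promoter differ together and cannot be told apart. The study also reports later tumour onset, and lesions at more body sites, in Ivl mice than in K5 and K14 mice. Onset and site differ with promoter too and cannot be told apart from it. In the study the Ivl promoter targets suprabasal keratinocytes and basal keratinocytes committed to differentiation. The Krt5 (K5) and Krt14 (K14) promoters target what the study calls basal stem cells. Per the labels, induction was at 7 to 20 weeks of age. The methods of the study give a C57BL/6J background for the mice. The labels call the tumours squamous cell carcinoma. The K5 and K14 models were pooled, as the study pooled them. The 9 pooled libraries are called K5/K14 tumours. The labels do not say that libraries of a group came from separate animals, so p-values measure the spread between these samples only.

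Class I of the family holds decorin (Dcn), biglycan (Bgn) and asporin (Aspn), class II holds lumican (Lum), fibromodulin (Fmod), PRELP (Prelp) and osteomodulin (Omd), class III holds osteoglycin (Ogn), and podocan (Podn) and podocan-like 1 (Podnl1) form a class of their own. Decorin, lumican and fibromodulin bind collagen fibrils and set their diameter and spacing, and the skin of mice without decorin is fragile. Decorin and biglycan also bind transforming growth factor beta, and free biglycan is a ligand of Toll-like receptors. In skin these genes are made mainly by dermal fibroblasts, and Cre in these models acted in keratinocytes, so the values below come from a mixture of cells in which fewer cells of a type and less RNA per cell cannot be told apart.

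The genes lie singly or in small clusters on GRCm38. Dcn (chr10:97479609-97518143) and Lum (chr10:97565128-97572703) are neighbours on the plus strand, as are Aspn (chr13:49544443-49567565), Omd (chr13:49582462-49592822) and Ogn (chr13:49608046-49624501), which lie inside the oppositely oriented gene Cenpp. Bgn is at chrX:73483602-73495933, Fmod at chr1:134037254-134048277 and Podnl1 at chr8:84125989-84132527, all on the plus strand. Prelp (chr1:133910304-133921414) and Podn (chr4:108014791-108096445) are on the minus strand. Exons of Aspn overlap exons of Cenpp, which had 2.46 to 6.55 CPM (normalised read counts, relative to the library total scaled with TMM), and exons of Prelp overlap those of Gm15851, which had 0 to 0.0899 CPM; whether strand was used in counting is not stated, so reads in these overlaps cannot be assigned.

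The 250 bases before the start of Bgn, Aspn and Ogn are shown because Bgn had the highest level per kilobase in the K5/K14 tumours, Ogn had the lowest fitted change there, and Aspn lies in the same cluster as Ogn with a different change. They are RefSeq sequences on GRCm38.p6, 5′ to 3′ on the plus strand, at chrX:73483351-73483600, chr13:49544193-49544442 and chr13:49607765-49608014. Capitals mark the TATA box (TATAAA), the GC box (GGGCGG), the AP-1 motif (TGANTCA), the TEAD motif (GGAATG) and the E-box (CANNTG) on either strand.
Bgn: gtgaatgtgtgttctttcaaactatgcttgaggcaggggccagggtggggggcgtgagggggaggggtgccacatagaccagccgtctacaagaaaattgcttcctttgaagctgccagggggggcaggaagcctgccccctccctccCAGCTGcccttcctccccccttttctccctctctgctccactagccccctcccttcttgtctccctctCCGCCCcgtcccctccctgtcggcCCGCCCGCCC
Aspn: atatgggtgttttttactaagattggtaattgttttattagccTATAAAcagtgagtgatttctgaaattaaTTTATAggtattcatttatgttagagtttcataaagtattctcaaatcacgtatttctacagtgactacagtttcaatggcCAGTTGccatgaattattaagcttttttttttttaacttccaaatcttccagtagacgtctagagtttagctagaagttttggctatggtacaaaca
Ogn: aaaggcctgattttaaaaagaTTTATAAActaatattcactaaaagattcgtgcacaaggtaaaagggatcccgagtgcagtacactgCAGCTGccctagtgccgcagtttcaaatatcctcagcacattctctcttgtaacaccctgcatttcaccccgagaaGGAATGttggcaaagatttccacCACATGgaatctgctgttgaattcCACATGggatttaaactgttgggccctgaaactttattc
The Bgn window was 64.4% G or C and held 3 GC boxes, of which 2 overlap, 1 E-box and no TATA box. The Aspn window was 30% G or C, with 2 TATA boxes and 1 E-box, and the Ogn window 42%, with 2 overlapping TATA boxes, 3 E-boxes and 1 TEAD motif. Of 32851 promoter windows of this length, 32.7% held a GC box, 12.4% a TATA box, 66.2% an E-box, 12.6% a TEAD motif and 6.75% an AP-1 motif, and the median G or C content was 52.4%. The motifs CCAAT (33.8% of windows), CAGAC (42.2%) and AACCACA (4.4%) were also searched, and of these the 3 windows held only 1 CCAAT, in Aspn. These are letter matches, not binding sites. Windows were found for 7 of the 10 genes, not for Dcn, Lum or Podnl1.

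Total counts lay between 45715309 and 72609771 per library. Ivl tumours 1, 2 and 3 and K5 tumour 1 stood apart, with 5562 to 6867 genes at 0 against 8034 to 10882 in the other tumours and 3242 to 3670 in normal skin. The authors adjusted the counts for a sequencing batch whose libraries are not named in the sources used here, so values from the other 15 libraries stand beside the results that rest on those 4. Keratinocyte markers marked the tumours, with a summed level of 31436 to 98017 CPM over 7 markers against 5216 to 10681 in skin. The 10 fibroblast markers summed to 165 to 1083 CPM in skin, 152 to 650 in Ivl tumours and 274 to 669 in K5/K14 tumours, and none of them was at 0 throughout a group. The skin samples differed among themselves, with fibroblast sums of 320, 165, 851 and 1083 CPM in skin 1 to 4. Skeletal muscle markers (5 genes) summed to 2065 to 6026 CPM in normal skin, 4.09 to 3622 in Ivl tumours and 4.95 to 325 in K5/K14 tumours.

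Normal skin expressed Dcn most per kilobase of exon, and the K5/K14 tumours expressed Bgn most. In skin the mean levels per kilobase were 79.3 ± 73.7 for Dcn, 51.1 ± 53.2 for Lum, 31.0 ± 26.2 for Bgn, 15.8 ± 12.9 for Ogn, 13.3 ± 12.1 for Aspn and 10.5 ± 7.11 for Prelp (CPM per kb, SD, n = 4), with Fmod, Podn, Omd and Podnl1 at 3.5, 3.46, 2.45 and 0.166. In Ivl tumours the order was Lum 40.8 ± 26.1, Dcn 36.9 ± 41.2, Bgn 28.8 ± 22.9 and Aspn 26.7 ± 34.8 (SD, n = 6), and the other 6 genes had means of 0.658 to 5.54. In K5/K14 tumours the order was Bgn 65.5 ± 22.1, Lum 41.7 ± 16.6, Aspn 21.9 ± 8.54 and Dcn 15.5 ± 10.5 (SD, n = 9), with the other 6 at 0.547 to 2.90. In skin each gene lay within 1 SD of its neighbour in this order, except Podnl1 below Omd, and in Ivl tumours each did. In K5/K14 tumours Bgn and Lum, and Lum and Aspn, lay further apart than their SDs, and Aspn and Dcn did not. Podnl1 was last in skin and in Ivl tumours and ranked 5 in K5/K14 tumours, next to Prelp at 2.79 ± 2.78.

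**Figure D1:**
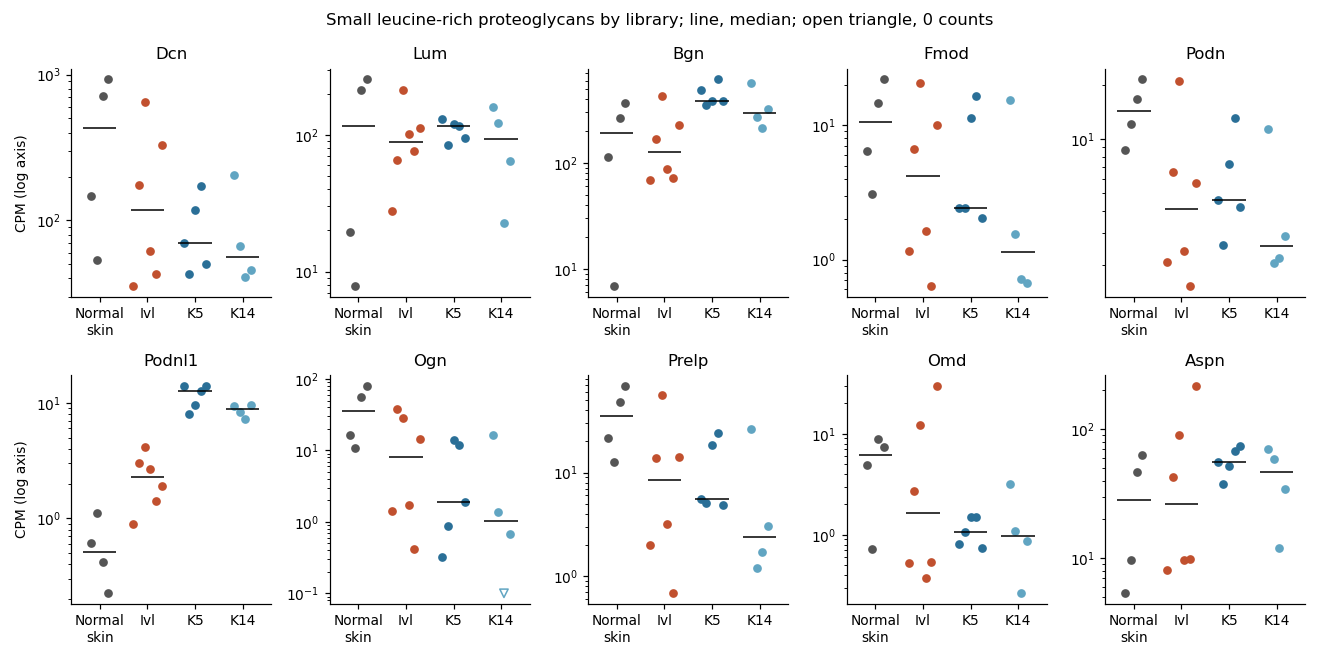
CPM of the 10 genes in each library on log axes, by group, with a line at the group median and an open triangle for a library with 0 counts. Podnl1 is the gene whose K5 and K14 tumours all lie above every Ivl tumour and every skin sample, and skin 1 and 2 lie well below skin 3 and 4 for Dcn and Lum.

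Dcn fell in K5/K14 tumours against skin, and edgeR called neither Bgn nor Aspn in any comparison of their CPM levels in the 19 libraries. In skin 1 to 4 Dcn stood at 146, 53.2, 719 and 934 CPM. The 6 Ivl tumours ran from 35.3 to 650 with a median of 119, and the 9 K5/K14 tumours from 41.0 to 206 with a median of 66.6. Skin samples 3 and 4 lay above every tumour, and skin 1 and 2 lay within the range of both tumour groups. With edgeR's quasi-likelihood test and Benjamini-Hochberg adjustment over all genes, Dcn in K5/K14 tumours was 5.13-fold below skin (log2 fold change -2.36 ± 0.74 SE, adjusted p = 0.0112; -2.32 and 0.0145 in the 15 libraries). The call rested on skin 4, and without that sample the change was -1.76 with an adjusted p of 0.0653. Ivl tumours differed from skin by -1.10 ± 0.83 (edgeR adjusted p = 0.277) and from K5/K14 tumours by 1.25 ± 0.68, which did not pass.

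Bgn went the other way in its levels, without passing the test. Its values in skin were 115, 6.83, 267 and 367 CPM, those in Ivl tumours 68.5 to 431 with a median of 128, and those in K5/K14 tumours 212 to 621 with a median of 383. Skin 2 was far below all other libraries, and the K5/K14 range reached above both other groups while overlapping them. The edgeR differences were 1.08 ± 0.66 for K5/K14 against skin (adjusted p = 0.159), -0.11 ± 0.67 for Ivl against skin and -1.19 ± 0.57 for Ivl against K5/K14 (adjusted p = 0.243). Aspn, which binds collagen and calcium, had 5.35, 9.64, 46.5 and 63.6 CPM in skin, 8.04 to 217 in Ivl tumours (median 26.2) and 12 to 73.6 in K5/K14 tumours (median 56.1). Ivl tumour 6 held the highest Aspn level, and no group stood clear of another. Its differences from skin were 1.01 ± 0.88 in Ivl and 0.72 ± 0.82 in K5/K14 tumours.

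Within a library the ratio of Dcn to Bgn does not depend on how libraries are scaled. It was 1.27, 7.79, 2.69 and 2.55 in skin 1 to 4, 0.515 to 1.51 in Ivl tumours (median 0.875) and 0.123 to 0.365 in K5/K14 tumours (median 0.194), as a ratio of CPM not corrected for length. Each Ivl tumour lay above every K5/K14 tumour, and each skin sample lay above every K5/K14 tumour. The mean log2 ratio in K5/K14 tumours lay 3.85 below that in skin (difference -3.85, two-sided exact permutation p = 0.0014, adjusted over 12 ratio tests 0.0042) and higher by 2.16 in Ivl than in K5/K14 tumours (exact p = 0.0002, the smallest these splits allow, adjusted 0.0024). In the 15 libraries both held, with adjusted values of 0.0121 and 0.0242 in the same exact test. Ivl tumours differed from skin by -1.69 (exact p = 0.019, adjusted 0.036), a call that was lost in the 15 libraries (adjusted exact p = 0.119) and without Ivl 1, 2, 4 or 5 or skin 2, 3 or 4, where the adjusted exact p ran from 0.0544 to 0.0952. In the 15 libraries the 35 splits of that comparison allow no exact permutation p under 0.0286.

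**Figure D2:**
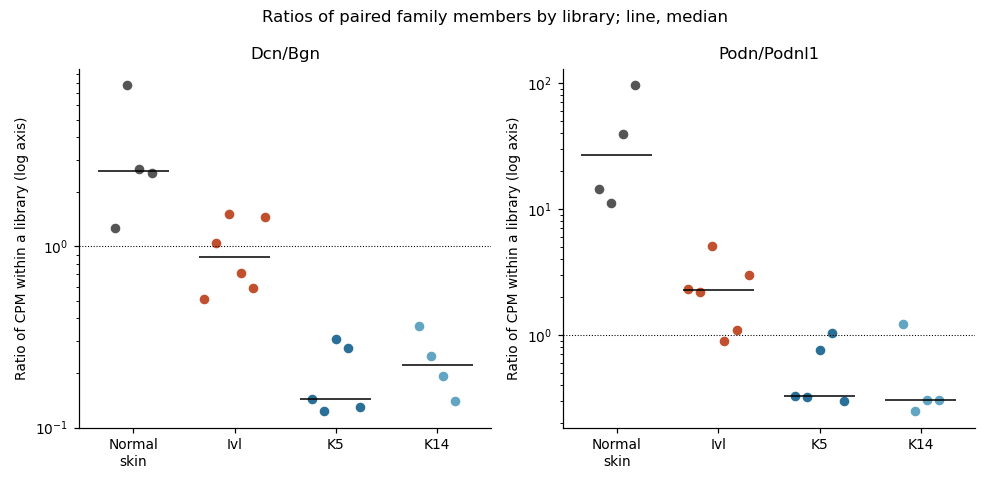
Ratio of CPM of paired family members within each library on log axes, by group, with a line at the median. The Dcn/Bgn ratio is 0.123 to 0.365 in K5 and K14 tumours and at least 0.515 elsewhere, and the Podn/Podnl1 ratio is at least 11 in skin and at most 5.08 in tumours.

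The same shift appeared in shares of the summed family level (CPM per kilobase). Dcn made up 35.4% ± 3.57 of it in skin (SD, n = 4; 30.8 to 38.2%), 20.3% ± 6.87 in Ivl tumours (n = 6; 13.1 to 31.6%) and 9.41% ± 3.21 in K5/K14 tumours (n = 9; 5.71 to 14.2%). The ranges of skin and K5/K14 tumours did not meet, and those of Ivl tumours met the other groups at 1 end or the other. Bgn made up 14.4% ± 9.07, 21.5% ± 6.05 and 43.6% ± 7.77, and its K5/K14 range began at 32.7%, just above the highest Ivl tumour at 32.6%. Lum took 18.5%, 34.7% and 26.4%, Aspn 7.39%, 13.9% and 14.0%, Ogn 9.24%, 3.32% and 1.02%, and Podnl1 0.334%, 0.609% and 2.06% in the same order. These shares describe what the ratios above test, and were not tested again.

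**Figure D3:**
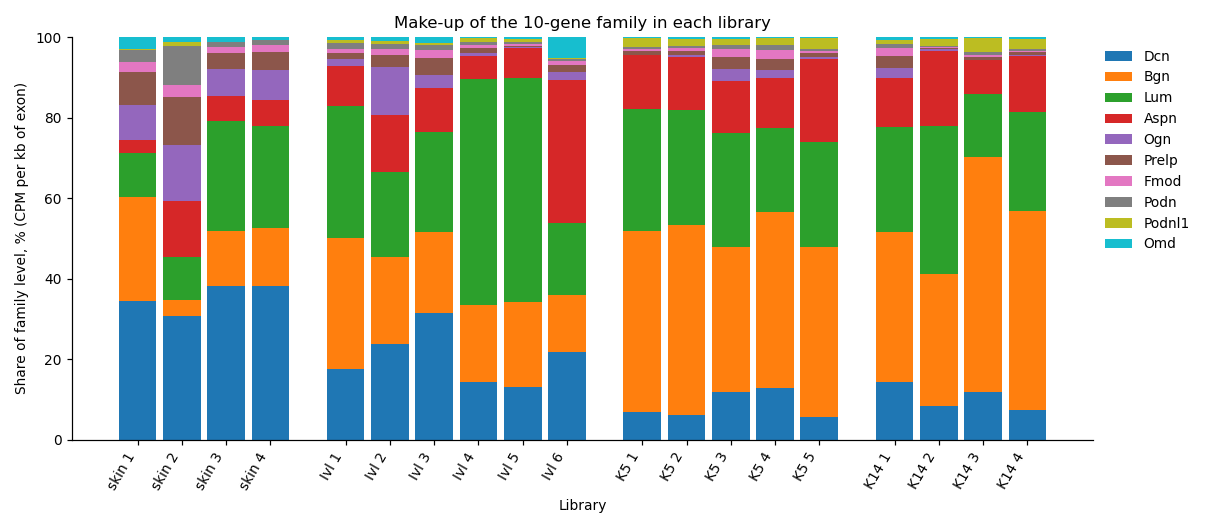
Stacked bars of each gene's share of the summed family level, in % of CPM per kilobase of exon, for each of the 19 libraries. Dcn fills 30.8 to 38.2% of the bar in skin and 5.71 to 14.2% in K5 and K14 tumours, where Bgn fills 32.7 to 58.3%.

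Among class II genes edgeR called only Omd in the CPM levels of the 19 libraries, in K5/K14 tumours against skin. Lum had 19.4, 7.78, 215 and 259 CPM in skin, 27.6 to 215 in Ivl tumours (median 89.6) and 22.8 to 160 in K5/K14 tumours (median 118), and its edgeR changes were -0.33 ± 0.73 (Ivl against skin), -0.29 ± 0.67 (K5/K14 against skin) and -0.03 ± 0.60 (Ivl against K5/K14). Skin held both the lowest and the highest Lum values of all 19 libraries. Fmod had 6.42, 3.08, 14.6 and 22.1 CPM in skin, 0.633 to 20.7 in Ivl tumours (median 4.17) and 0.668 to 16.5 in K5/K14 tumours (median 2.41), with changes of -0.76, -0.97 and 0.21 that did not pass. Prelp, which anchors basement membranes to connective tissue, had 21.5, 12.7, 48.5 and 69.0 CPM in skin, 0.679 to 56.6 in Ivl tumours (median 8.54) and 1.2 to 26.6 in K5/K14 tumours (median 5.11). Most tumours lay under the skin range, and the edgeR change of K5/K14 tumours from skin was -1.91 ± 0.91 with an adjusted p of 0.0765. Prelp passed with DESeq2 (adjusted p = 0.0336).

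Omd, known from bone and tooth matrix, had 4.96, 0.719, 8.89 and 7.43 CPM in skin, 0.377 to 29.9 in Ivl tumours (median 1.64) and 0.264 to 3.22 in K5/K14 tumours (median 1.06). Skin 2 lay inside the K5/K14 range, and Ivl 6 and Ivl 3 (12.4) lay above all skin samples. K5/K14 tumours differed from skin by -2.16 ± 0.89 (edgeR adjusted p = 0.0421), and the call was lost in 11 of 19 fits that each left out 1 library (any K5 tumour, K14 2, 3 or 4, or skin 1, 3 or 4; adjusted p 0.0525 to 0.112) and in the 15 libraries (0.0587). Ivl exceeded K5/K14 tumours by 2.65 ± 0.83 (edgeR adjusted p = 0.0862; DESeq2 0.0132).

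The ratio of Lum to Fmod in K5/K14 tumours exceeded that in skin by 2.27 on the log2 scale (exact permutation p = 0.021, adjusted 0.036). It was 2.53 to 14.7 in skin and 7.12 to 96.9 in K5/K14 tumours, and these ranges overlapped. The call was lost in the 15 libraries (adjusted exact p = 0.0646) and without K5 1, 2 or 5, K14 2, 3 or 4, or skin 1 or 2 (0.0519 to 0.132).

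Ogn, the class III member, had the lowest fitted change of the family. It had 16.3, 10.7, 55.4 and 80.3 CPM in skin, 0.422 to 38.3 in Ivl tumours (median 8.10) and 0 to 16.5 in K5/K14 tumours (median 1.38), K14 3 being the library at 0. Of the K5/K14 tumours, K14 1, K5 3 (13.8) and K5 4 (11.8) lay within the skin range and the other 6 lay at 1.90 or less. The change of K5/K14 tumours from skin was -2.95 ± 1.18 (edgeR adjusted p = 0.0378; 0.0495 in the 15 libraries), and it was lost without K5 1, 2 or 5, K14 2 or 4, or skin 3 or 4 (0.0504 to 0.115). Ivl tumours differed from skin by -1.52 ± 1.31 and from K5/K14 tumours by 1.44 ± 1.08, neither past the test. The ratio of Ogn to Omd was not called in any comparison (lowest adjusted exact p = 0.0986).

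Podnl1 rose in both tumour groups, and Podn, the other podocan, had lower fitted values in both. Podnl1 had 0.607, 1.1, 0.422 and 0.224 CPM in skin 1 to 4, 0.891, 3.0, 4.13, 2.68, 1.41 and 1.91 in Ivl 1 to 6, and 7.19 to 14.0 in K5/K14 tumours with a median of 9.50. K5/K14 tumours did not overlap either other group, while Ivl 1 lay below skin 2. Podnl1 was the only one of the 10 genes without overlap between K5/K14 tumours and skin, where 41.4% of all genes tested had none, and the only one between Ivl and K5/K14 tumours, where 0.656% had none. Podnl1 rose 17.5-fold in K5/K14 tumours over skin (4.13 ± 0.46, edgeR adjusted p = 1.90e-06) and 3.97-fold in Ivl tumours (1.99 ± 0.42, adjusted p = 0.00116), and was 4.4-fold lower in Ivl than in K5/K14 tumours (-2.14 ± 0.35, adjusted p = 0.00612). Within the 15 libraries, where 66.2%, 54.9% and 0.41% of all genes were called, the changes were 4.06, 1.76 and -2.30, all called (highest edgeR adjusted p = 0.0221). The third held in every fit of the 19 that left out 1 library, and was lost in the 15 when Ivl 4, 5 or 6 was left out as well (adjusted p up to 0.113).

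Podn, a matrix protein known from arterial smooth muscle, had 8.66, 12.2, 16.7 and 21.6 CPM in skin, 1.52 to 21 in Ivl tumours (median 4.07) and 2.05 to 13.1 in K5/K14 tumours (median 4.19). Ivl 3, K5 4 and K14 1 were the tumours within the skin range. Its change from skin was -1.40 ± 0.60 in K5/K14 tumours (edgeR adjusted p = 0.0488), a call lost in 12 of the 19 fits without 1 library (Ivl 2 or 6, K5 1, 2, 3 or 5, K14 2, 3 or 4, or skin 2, 3 or 4; adjusted p 0.054 to 0.136), and in Ivl tumours -1.17 ± 0.66 (adjusted p = 0.158). Without Ivl 3 the Ivl change was -2.02 with an edgeR adjusted p of 0.00896, and in the 15 libraries, which also lack it, -2.20 with 0.0203. The ratio of Podn to Podnl1 was 14.3, 11, 39.6 and 96.3 in skin, 0.896 to 5.08 in Ivl tumours (median 2.26) and 0.247 to 1.22 in K5/K14 tumours (median 0.323). Every tumour lay below every skin sample. The log2 ratio differed by -3.66 (Ivl against skin), -5.85 (K5/K14 against skin) and 2.19 (Ivl against K5/K14), with exact permutation p of 0.00476, 0.0014 and 0.0012 (adjusted 0.0114, 0.0042 and 0.0042). In the 15 libraries only the second stayed past the threshold (adjusted exact p 0.0646, 0.0121 and 0.0646). For the first, 3 Ivl tumours against 4 skin samples, the exact permutation p was 0.0286, the smallest that 35 splits allow. Its difference there was -4.18 and the groups did not overlap, so the lost call does not mark a smaller difference. For the third, the difference in the 15 libraries was smaller, at 1.61 (exact permutation p = 0.0303), and the groups overlapped.

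In counts of calls, 5 of the 10 genes passed in K5/K14 tumours against skin, Podnl1 higher and Dcn, Podn, Ogn and Omd lower, where 62.2% of the 32031 genes tested were called (23.2% higher and 38.9% lower). In Ivl tumours against skin 1 gene passed, Podnl1, where 35.9% of all genes were called (20.4% higher). In Ivl against K5/K14 tumours 1 passed, again Podnl1, where 2.36% were called and 0.593% were lower. In the 15 libraries 4 passed in K5/K14 tumours against skin (all of these but Omd; background 66.2%), 2 in Ivl tumours against skin (Podnl1 higher and Podn lower; 54.9%), 1 in Ivl against K5/K14 tumours (Podnl1; 0.41%) and 0 in K5 against K14 (0.0532%). DESeq2 called 6, 1 and 2 of the 10 in the first 3 of these, beside 58%, 36.5% and 6.66% of all genes, adding Prelp to the first and Omd to the third. The median log2 change over the 10 genes was -1.19 in K5/K14 tumours against skin, -0.54 in Ivl tumours against skin and 0.26 in Ivl against K5/K14 tumours, beside -0.60, -0.46 and 0.11 over all genes tested. The tumour groups share the same 4 skin samples, so their changes from skin are not separate observations. With the size factors of DESeq2 in place of TMM the median over all genes moved to -0.71 against skin in K5/K14 and -0.59 in Ivl tumours, and the numbers of members called stayed at 5, 1 and 1.

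**Figure D4:**
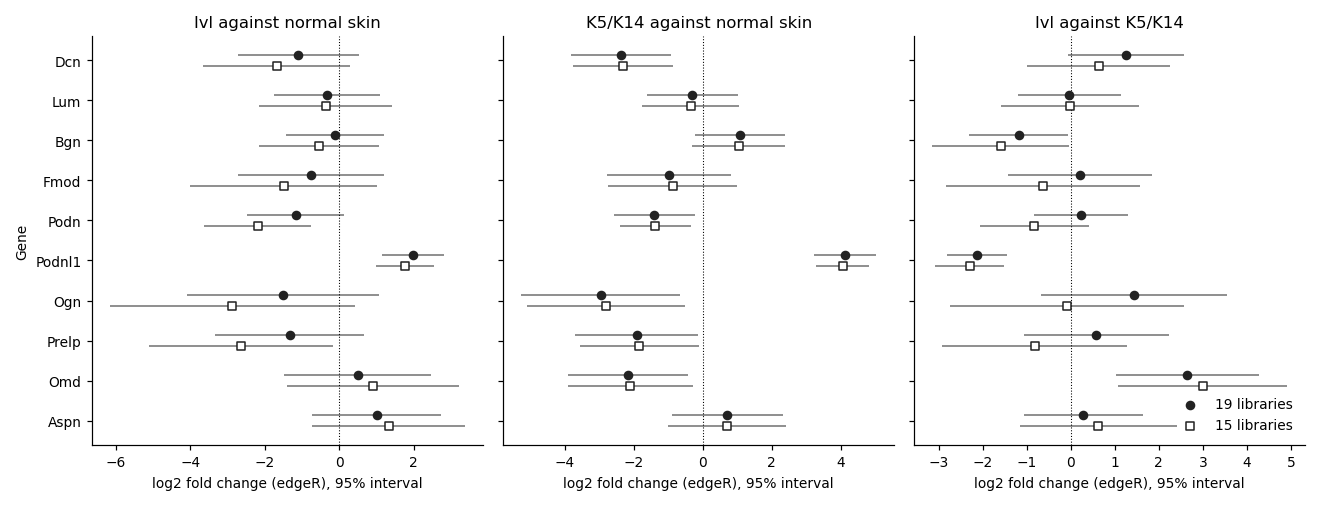
Log2 fold changes of the 10 genes with 95% intervals from edgeR in the comparisons drawn. Filled circles are fits of the 19 libraries and open squares are fits of the 15 libraries, whether or not a gene was called. In the 19 libraries Podnl1 lies at 4.13 and 1.99 for K5/K14 and Ivl tumours against skin and at -2.14 for Ivl against K5/K14 tumours. The intervals of Lum cross 0 in all of the comparisons.

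Before pooling, the K5 and K14 models were set against each other. None of the 10 genes, and 0 of all genes, were called by edgeR, and at an unadjusted p under 0.05 there were 0 of the 10 and 1945 of all genes. DESeq2 called 173 genes (0.54%) and none of the 10. The log2 differences ran from -0.28 for Omd to 0.59 for Fmod, and the 95% interval for Podnl1, the tightest, was -0.36 to 1.23. The Podnl1 levels were 8.0 to 14.0 CPM in K5 and 7.19 to 9.50 in K14 tumours.

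Most members were highest in the same few tumours of a group, which also held the highest skeletal muscle marker sums. In K5/K14 tumours the 3 highest libraries were K5 3, K5 4 and K14 1 for 6 genes (Dcn, Fmod, Podn, Ogn, Prelp and Omd), and these 3 also had the highest summed skeletal muscle markers, 135, 54.5 and 325 CPM against 4.95 to 12.6 in the other 6. In Ivl tumours the 3 highest were Ivl 2, 3 and 6 for 8 genes, all except Lum and Podnl1, with muscle sums of 3622, 1094 and 340 CPM against 4.09 to 6.57. Fibroblast markers were also highest in those Ivl tumours, at 290, 650 and 277 CPM against 152 to 177. In K5/K14 tumours the highest fibroblast sum was that of K5 1 (669 CPM). K5 4 (513), K14 1 (472) and K5 3 (388) came next, against 274 to 379 in the other 5. Tendon markers (4 genes) summed to 26.2, 85.1 and 129 CPM in Ivl 2, 3 and 6 against 4.33 to 5.26 in the other Ivl tumours. Among K5/K14 tumours they summed to 59.0 CPM in K14 1, 19.9 in K5 3, 19.3 in K14 2 and 18.9 in K5 4, against 2.53 to 4.61 in the other 5. Hair shaft markers (6 genes) summed to 1397, 458 and 534 CPM in Ivl 2, 3 and 6 against 1.23 to 111 in the other Ivl tumours. They stood at 904 CPM in K14 1, 43.0 in K14 2 and 0.257 to 0.972 in the other K5/K14 tumours. Adipocyte markers (6 genes) went the other way, at 326, 294 and 80.5 CPM in Ivl 2, 3 and 6 against 1644, 1694 and 3477 in Ivl 1, 4 and 5. Among K5/K14 tumours they were highest in K14 2 (702 CPM), K5 1 (674) and K14 3 (610). The part of fibroblasts, muscle, tendon, hair or adipose tissue in the levels of these genes was not tested. Over the 15 tumours the log2 level of a member correlated with the mean of the other 9 at r = 0.914 for Podn, 0.913 for Fmod and 0.908 for Prelp, and at 0.288 for Podnl1. These values describe libraries that share groups and tissue make-up, and carry no test.

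Genes outside the family whose levels most resembled the members' standardised mean were sought among 9959 genes with a mean of at least 10 CPM. Over the 15 tumours they were Lpar1 (r = 0.953), Lox, a collagen cross-linking enzyme (0.952), Emp3 (0.940), Gpm6b (0.936) and Dpep1 (0.927). Over all 19 libraries they were Lox (0.943), Dpep1 (0.925), Ace (0.895), Itgbl1 (0.882) and Emp3 (0.881). Lox, Dpep1 and Emp3 stood in both lists.

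To set the members against fibroblast markers, the mean log2 CPM of the 10 markers was subtracted from each member in each library. The markers did not move together. In K5/K14 tumours against skin Fbln1 rose by 1.01, Fap (-2.16) and Pi16 (-3.63) fell, and the median change of the list was -0.88. The scale is therefore relative to this list and is not a measure of the amount of fibroblast RNA. On this scale Bgn lay at -0.65 to 2.50 in skin, 3.08 to 3.77 in Ivl tumours and 4.25 to 4.96 in K5/K14 tumours, and no library of one group reached into another. Aspn lay at -2.09 to -0.03 in skin, 0.19 to 3.43 in Ivl tumours and 0.64 to 2.54 in K5/K14 tumours, so that all 15 tumours were above all 4 skin samples. Dcn lay at 2.31 to 3.85 in skin, 2.35 to 4.03 in Ivl tumours and 1.82 to 2.83 in K5/K14 tumours, overlapping throughout.

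Relative to these markers, 4 of the 10 genes were higher in K5/K14 tumours than in skin at an exact permutation p adjusted over all genes, beside 28.8% of all genes in either direction. They were Podnl1 (difference 5.22), Bgn (3.01) and Aspn (2.22), each with an adjusted exact p of 0.0143, and Lum (1.76, adjusted 0.0262). The lower values of Ogn (-3.25, 0.0547), Prelp (-1.35, 0.0608), Dcn (-0.83, 0.0667) and Omd (-0.91, 0.0667) did not pass that exact test. In the 15 libraries 4 of the 10 also passed, beside 25.8% of all genes. Against skin, Ivl tumours gave 0 of the 10 and 0 of all genes past the adjusted threshold. The 210 splits of that comparison allow no exact permutation p under 0.00476. Bgn had that value, which became 0.266 when adjusted over all genes. These 0 counts therefore do not set Ivl tumours apart from K5/K14 tumours. At an unadjusted exact p under 0.05 there were 4 of the 10 in Ivl tumours against skin, higher for Lum (1.82), Bgn (1.75), Podnl1 (3.15) and Aspn (1.76), beside 17.9% of all genes. Ivl against K5/K14 tumours likewise gave 0 of the 10 and 0 of all genes adjusted, and 4 at the unadjusted exact p, beside 7.84%. Bgn (-1.26) and Podnl1 (-2.06) were lower in Ivl tumours with an exact p of 0.0002, the smallest that 5005 splits allow (adjusted over all genes 0.0877). Dcn (0.90, exact p = 0.0028) and Omd (1.28, exact p = 0.0296) were higher there. Groups did not overlap for 2, 4 and 2 of the 10 in the order Ivl against skin, K5/K14 against skin and Ivl against K5/K14, beside 2.44%, 10.1% and 0.309% of all genes.

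**Figure D5:**
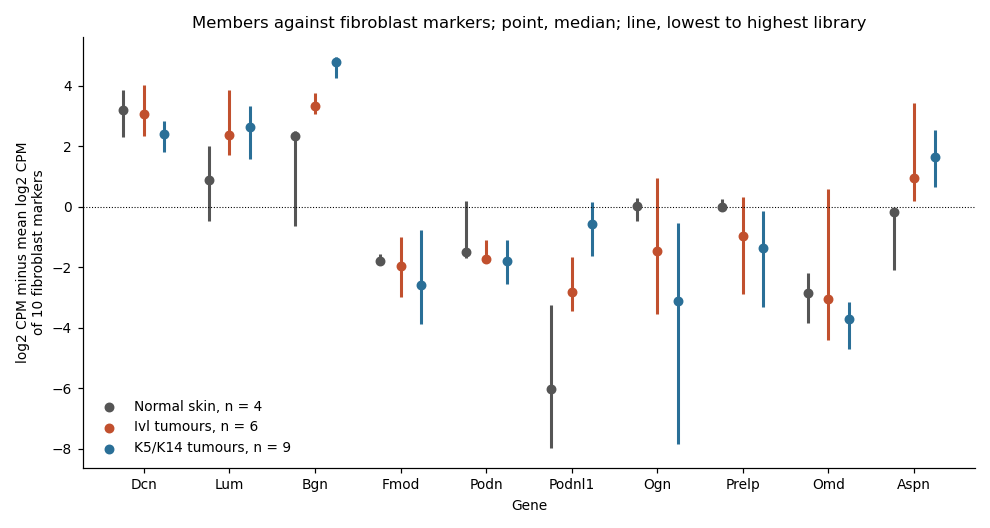
Log2 CPM of each gene minus the mean log2 CPM of 10 fibroblast markers, with a point at the group median and a line from the lowest to the highest library. The lines of Bgn do not meet among normal skin (up to 2.50), Ivl (3.08 to 3.77) and K5/K14 tumours (4.25 to 4.96).

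Genes that build, bind or cut these proteoglycans were counted in the same edgeR fits, from lists that were likewise drawn up with earlier results known. Of all genes tested 35.9% were called in Ivl tumours against skin (20.4% higher), 62.2% in K5/K14 tumours against skin (23.2% higher and 38.9% lower) and 2.36% in Ivl against K5/K14 tumours. These shares in the 15 libraries were 54.9%, 66.2% and 0.41%. The counts of each list are to be read against these shares, and no list was tested as a set. In the collagen fibril and cross-linking list (19 genes) 1 rose and 1 fell in Ivl tumours against skin, 4 rose and 2 fell in K5/K14 tumours, and 2 were lower in Ivl than in K5/K14 tumours, which makes 10.5%, 31.6% and 10.5% called. Within the 15 libraries 1 rose and 5 fell in Ivl tumours, 3 rose and 3 fell in K5/K14 tumours, and 2 were lower in Ivl than in K5/K14 tumours. Col12a1, a fibril-associated collagen, had a mean of 97.3 ± 44.2 CPM in skin, 343 ± 107 in Ivl and 1212 ± 280 in K5/K14 tumours (SD, n = 4, 6 and 9), and rose by 1.82 and 3.64 over skin. Fbn1, a microfibril protein, was lower in Ivl tumours (-1.66), and Tnxb (-4.97) and Col14a1 (-1.94), both associated with fibrils, were lower in K5/K14 tumours. Loxl3, a cross-linking enzyme, was higher in K5/K14 tumours than in skin (1.64) and lower in Ivl than in K5/K14 tumours (-1.67).

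Of 11 proteases tested that can cleave members of the family, 3 rose and 1 fell in Ivl tumours, 7 rose and 1 fell in K5/K14 tumours, and 2 were lower in Ivl than in K5/K14 tumours, or 36.4%, 72.7% and 18.2% called. Without the 4 libraries that stood apart 2 rose and 1 fell in Ivl tumours, 6 rose and 1 fell in K5/K14 tumours, and Bmp1 alone was lower in Ivl than in K5/K14 tumours. Bmp1, which removes the propeptides of biglycan and decorin, had 77.4 ± 20.0 CPM in skin, 121 ± 19.7 in Ivl and 267 ± 33.7 in K5/K14 tumours (SD, n = 4, 6 and 9). It rose by 0.64 and 1.79 over skin and was lower in Ivl than in K5/K14 tumours by -1.14 (edgeR adjusted p = 0.00118). Mmp13, a collagenase, rose by 5.56 and 7.35 over skin. Adamts4 was lower in Ivl than in K5/K14 tumours (-2.23), a call lost in the 15 libraries (edgeR adjusted p = 0.21), and Adamts5, a related aggrecanase, fell by 2.00 in Ivl and by 1.66 in K5/K14 tumours on the log2 scale.

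The enzymes of the sugar chains went both ways. In chondroitin and dermatan sulphate synthesis (22 genes) 1 rose and 3 fell in Ivl tumours, 5 rose and 4 fell in K5/K14 tumours, and 1 was higher and 1 lower in Ivl than in K5/K14 tumours, or 18.2%, 40.9% and 9.09% called. Counts in the 15 libraries differed, in that 1 rose and 7 fell in Ivl tumours, 4 rose and 5 fell in K5/K14 tumours, and 0 differed between tumour groups. B3galt6, of the linker region, rose by 0.60 and 0.75, Xylt1, which starts the chain, fell by 1.05 in Ivl tumours, and Chst3, a sulphotransferase, fell in K5/K14 tumours against skin (-1.77). Of 7 genes of keratan sulphate synthesis 2 rose and 2 fell in Ivl tumours, 3 rose and 2 fell in K5/K14 tumours, and 2 were lower in Ivl than in K5/K14 tumours, or 57.1%, 71.4% and 28.6% called. The 15 libraries gave these same counts against skin and 0 between tumour groups. Chst2, a sulphotransferase, had 3.46 ± 1.30 CPM in skin, 9.63 ± 3.38 in Ivl and 22.1 ± 4.71 in K5/K14 tumours (SD, n = 4, 6 and 9), and B3gnt2, which extends the chain, rose by 1.74 and 2.01.

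Among 17 growth factor and receptor partners 1 rose and 2 fell in Ivl tumours, 3 rose and 7 fell in K5/K14 tumours, and 1 was higher in Ivl than in K5/K14 tumours, or 17.6%, 58.8% and 5.88% called. Within the 15 libraries 1 rose and 5 fell in Ivl tumours, the K5/K14 counts were the same, and 0 differed between tumour groups. Ccn4, a matricellular protein, rose by 1.91 and 3.53, Tgfb1 rose by 1.05 in K5/K14 tumours, Bmp2 fell there by 1.88, and Tgfbr3, a co-receptor for transforming growth factor beta, fell in Ivl tumours by 1.57. Of 8 other leucine-rich repeat proteoglycans 1 rose and 1 fell in Ivl tumours, 1 rose and 5 fell in K5/K14 tumours (25% and 75% called), and none differed between tumour groups. For the 15 libraries 1 rose and 4 fell in Ivl tumours, with the other counts the same. Tsku rose by 0.67 and 0.50, and Ecm2 (-2.72) and Chad (-2.18) were lower in K5/K14 tumours. Of 19 other proteoglycans 3 rose and 4 fell in Ivl tumours and 3 rose and 7 fell in K5/K14 tumours, among them Sdc1, a syndecan of epithelial cells, up by 1.29 and 1.81. In that list 1 gene was higher and 1 lower in Ivl than in K5/K14 tumours, and the shares called were 36.8%, 52.6% and 10.5%. Of the same genes 3 rose and 9 fell in each tumour group in the 15 libraries, and 1 was higher and 2 lower in Ivl than in K5/K14 tumours.

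Of 10 genes of activated stroma 3 rose in each tumour group and none fell, among them Tnc (2.40 and 3.55) and Cthrc1 (2.36 and 2.69), and none differed between the tumour groups. Those counts (30% called against skin in each tumour group) were the same in the 15 libraries. Of the 10 fibroblast markers 2 fell in Ivl tumours, 1 rose and 3 fell in K5/K14 tumours, and none differed between tumour groups. Of these markers 4 fell in Ivl tumours in the 15 libraries, and 1 rose and 4 fell in K5/K14 tumours. All 5 skeletal muscle markers fell in K5/K14 tumours, and in Ivl tumours none was called in the 19 libraries. Mylpf, a myosin light chain, was called lower in Ivl tumours in the 15 libraries (-3.22, edgeR adjusted p = 0.0299).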

How the data were processed

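Poly(A) RNA of 19 libraries was sequenced as read pairs with a strand-specific kit. The authors, per the labels and their methods, ran FastQC 0.11.8 and Trim Galore, aligned to GRCm38 with HISAT2 2.1.0, counted with featureCounts (Subread 1.6.3) and adjusted for a sequencing batch with ComBat-seq, so the deposited values are estimated counts, already whole numbers and not scaled for depth. Whether groups entered that adjustment, and whether strand was used in counting, is not given in the sources used here. The test planned for plain counts was kept.

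Symbols came from GENCODE mouse release 21 (34694 of 34807 identifiers matched). A gene needed 5 counts in at least 1 library (32031 genes). All 19 libraries entered edgeR 4.0.16 (R 4.3.3): TMM, robust quasi-likelihood F test, two-sided, Benjamini-Hochberg over all genes, threshold 0.05. DESeq2 1.42.0 was an alternative. Standard errors were derived from the F statistic and leave out error of the batch adjustment. The 95% intervals are 1.96 SE either side, a normal approximation narrower than the F test allows. Ratios and fibroblast-relative values used log2 CPM with a prior count of 2 and exact two-sided permutation tests; the latter were adjusted over all genes in the text, a choice made after seeing the data, and over 30 tests as first planned. Members and lists were chosen with earlier results of these data known. In each list up to 4 genes per comparison were named, the 2 called with the smallest adjusted p in each direction, beside those a result turned on. Promoters came from RefSeq (GRCm38.p6). The edgeR and permutation scripts were tested on simulated data. Totals of 45715309 to 72609771 left counting error small beside the spread between libraries, except for members near 0 counts. Alternatives were other scalings, filters, tests and blocks, and leaving out each library in turn. No 2 libraries of a group agreed within sampling noise (37 pairs, smallest chi-square per degree of freedom 25.9).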

Additional observations from a re-analysis of the deposited data

Results flagged for a closer look

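In 8 of 50 groups of 4 to 9 samples examined over the 10 members, 1 library lay far from the rest by Dixon's test. The usual rate of about 1 in 20 groups holds for independent groups of normally spread values. Here the K5/K14 groups contain the K5 and K14 groups, and all members share the same libraries. The 8 flags therefore cannot be set against that rate. K14 tumour 1 was the high library among K14 tumours for Dcn (206 CPM), Fmod (15.5 CPM), Podn (11.4 CPM), Ogn (16.5 CPM) and Prelp (26.6 CPM), and among K5/K14 tumours for Omd (3.22 CPM). Ivl tumour 3 was the high library among Ivl tumours for Podn (21 CPM) and Prelp (56.6 CPM). Both libraries had skeletal muscle marker sums (325 and 1094 CPM) above most tumours of their group. K14 1 also had the highest fibroblast (472 CPM), tendon (59.0) and hair shaft (904) sums among K14 tumours. Ivl 3 had the highest fibroblast sum among Ivl tumours (650 CPM), and Ivl 2, with the highest muscle sum (3622 CPM), was not flagged. The part of these tissues in the flagged values was not tested.

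By edgeR's test of the difference itself, Ivl tumours differed from K5/K14 tumours for 1 member and for 11 genes of the lists. The log2 changes, Ivl minus K5/K14, were -2.14 for Podnl1, 1.67 for Chst3, -0.63 for Chst14, -1.82 for Col12a1, -1.67 for Loxl3, -1.20 for Chst2, -0.73 for B4galt1, -0.93 for Gpc1, -1.14 for Bmp1 and -2.23 for Adamts4. For Erbb4 (4.68) and Spock1 (4.13) the K5/K14 tumours had means of 0.00177 and 0.0350 CPM, so these fitted values depend on the prior count. In the 15 libraries edgeR still called Podnl1, Col12a1, Loxl3, Bmp1 and Spock1. The calls of Chst3, Chst14, Chst2, B4galt1, Gpc1, Adamts4 and Erbb4 were lost there, with adjusted p from 0.103 to 0.229.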

How the results depend on the processing

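Of 1384 values of single genes and ratios recomputed under other settings, 1213 kept direction and side of the threshold, 126 lost the call, 10 gained one and 35 changed sign, and the causes were not tested. Podnl1 against skin was called in both tumour groups in each of these edgeR and DESeq2 fits. Members called numbered 2 in the 15 libraries for Ivl against skin, and 2 with DESeq2 for Ivl against K5/K14. Replicate numbers did not pair the libraries (10 of 25 same-number pairs with r over 0.1, range -0.395 to 0.439). With the replicate block 1 member was called in K5/K14 against skin and 0 in Ivl against K5/K14, and sign changed for Bgn (0.10) and Omd (-0.91) in Ivl against skin, Lum (0.33) in K5/K14 against skin, and Fmod (-0.019) and Aspn (-1.05) in Ivl against K5/K14. In that last comparison sign also changed with the set of 4 as a covariate for Fmod (-0.11), Podn (-0.41) and Prelp (-0.26), and in the 15 libraries for Fmod (-0.63), Podn (-0.83), Ogn (-0.079), Prelp (-0.82), the Lum/Fmod ratio (0.67) and the Ogn/Omd ratio (-0.56). Ratios past the threshold in the 15 libraries numbered 0 for Ivl against skin and 1 for Ivl against K5/K14. Fibroblast-relative members past the threshold over 30 tests numbered 3 (Ivl against skin), 8 (K5/K14 against skin) and 3 (Ivl against K5/K14), and in the 15 libraries 0 for the first and 4 for the second, which was also 4 with a prior count of 0.5. For Ivl against skin the 15 libraries allow 35 splits and no exact permutation p under 0.0286, so the 0 ratios and 0 members there say little. Leaving out 1 library gave 1 to 3 members called in Ivl and 1 to 6 in K5/K14 against skin, 1 to 5, 1 to 6 and (Ivl against K5/K14) 0 to 1 in the 15 libraries (added after seeing the data), 0 to 5 (Ivl) and 3 to 8 (K5/K14) fibroblast-relative members against skin, and 1 to 2 ratios in Ivl against skin. Values that changed sign ran, in Ivl against skin, from -0.72 to 0.30 for Lum, -0.61 to 0.43 for Bgn and -0.73 to 0.79 for Omd, and in K5/K14 against skin from -0.68 to 0.34 for Lum. In Ivl against K5/K14 they ran from -0.43 to 0.16 for Lum, -0.56 to 0.58 for Fmod, -0.62 to 0.49 for Podn, -0.58 to 0.91 for Prelp and -0.68 to 0.52 for Aspn. All genes called in Ivl against K5/K14 numbered 756, and 2133 with DESeq2, 449 with the covariate, 46 with the block and 131 in the 15 libraries; in Ivl against skin they numbered 11515, and 17566 in the 15 libraries, and in K5 against K14 0, and 17 in the 15 libraries.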
